A study of Homo sapiens with 18 samples.

Results

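The genes described here were 45 human genes of DNA double-strand break repair and its signalling, taken by name: the homologous recombination genes, the end resection genes, 2 RecQ helicases, the Fanconi anaemia genes, the checkpoint kinases with their activators, the chromatin signalling factors of break sites, the end-joining genes and 2 poly(ADP-ribose) polymerases. Of the 45 genes, 43 were found among the 12755 gene IDs of the deposited table and 42 passed the filter on low values, under which 10191 genes were tested. RAD51D and FANCF were not analysed here, and LIG4 was below the filter. The table came from MDA-MB-453 cells, an established breast cancer line, given either DMSO or JQ1-VHL for 3 hours. JQ1-VHL is a degrader of the BET bromodomain proteins, chromatin readers that promote RNA polymerase II transcription, and the sample titles call it dBET. Cells were labelled with 0.1 mM 4-thiouridine, a uridine analogue that marks RNA made while it is present, for the last 60 minutes. Each treatment had 3 libraries of total RNA, 3 of nuclear RNA and 3 of cytoplasmic RNA, the fractions being parted with digitonin at 1 mg/ml, which gives 18 libraries in 6 groups. The labels report 1 cell line and no genetic change in any group, and whether replicates came from separate cultures is not stated, so the p-values cover no more than the library-to-library spread, which may be technical.

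Double-strand breaks are mended by 2 main routes. In end joining, the Ku heterodimer of XRCC5 and XRCC6 caps the ends and recruits the kinase PRKDC before XRCC4 and LIG4 seal them. In homologous recombination, MRE11, RAD50 and NBN with RBBP8 begin to trim the ends, EXO1 extends the single strand, and BRCA1, PALB2 and BRCA2 act on it next. ATM and ATR signal the damage, TP53BP1, MDC1, RNF8 and RNF168 organise the chromatin around the break, and the Fanconi anaemia proteins clear crosslinks between the strands. BET inhibitors are known for lowering transcripts of recombination genes in several cancers.

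The promoters of 4 members are printed as examples of genes that moved apart in the nucleus: RNF8 and FANCG had the lowest log2 changes on both scales used, and FANCA and PARP1 were among the 16 members higher than the typical gene after rescaling. Each line is 100 bases that end 11, 74, 10 and 0 bases before the RefSeq transcript start of RNF8, FANCG, FANCA and PARP1 on GRCh38.p14, so that no exon annotated in GENCODE 29 is included, 5′ to 3′ on the gene's strand, at chr6:37353872-37353971 (plus strand), chr9:35080017-35080116 (minus), chr16:89816658-89816757 (minus) and chr1:226408094-226408193 (minus). Capitals mark the GC box (GGGCGG, or CCGCCC on the other strand) and the CCAAT box (CCAAT, or ATTGG on the other strand).
RNF8: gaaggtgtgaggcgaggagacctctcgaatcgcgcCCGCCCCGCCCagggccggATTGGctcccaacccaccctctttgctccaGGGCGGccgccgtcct
FANCG: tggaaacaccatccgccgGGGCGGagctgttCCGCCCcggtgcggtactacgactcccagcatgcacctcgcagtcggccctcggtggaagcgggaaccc
FANCA: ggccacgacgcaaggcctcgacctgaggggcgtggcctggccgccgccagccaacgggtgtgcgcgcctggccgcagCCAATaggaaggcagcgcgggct
PARP1: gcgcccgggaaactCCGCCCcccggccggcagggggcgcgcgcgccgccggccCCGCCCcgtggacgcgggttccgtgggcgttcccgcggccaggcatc
RNF8, FANCG and PARP1 held GC boxes in these windows, and RNF8 and FANCA held a CCAAT box, so neither motif was particular to one direction. Over 250 bases upstream, searched on both strands, the GC box was in 29 of the 40 matched members (72.5%) and in 42.3% of 27305 promoters. These 40 hold RAD51D and FANCF, which have no values here, and lack NBN, WRN, FANCI, PRKDC and XRCC5. CCAAT was in 17 of 40 (42.5%) against 33.0%, and the ETS-type sequence CCGGAAGT in 7 of 40 (17.5%) against 3.64%. The TATA sequence TATAAA was in none of the 40 members, against 11.1% of all promoters, which says only that these letters are not in this window. The median number of CG pairs was 20 in the members and 11 in all promoters. Matches are a description of the sequence and not of binding.

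Values are T-to-C reads, the reads that carry the mark of 4-thiouridine, divided by the authors' ERCC factor of the library and summed over the intervals of a gene; they are called units. Because ERCC RNA was added per mass of RNA, units stand for T-to-C reads per mass of RNA in the fraction. They do not give amounts per cell. The libraries held 1.58 to 6.77 M T-to-C reads, and 1 read was worth 0.470 to 2.75 units. Libraries of a group stood apart in scale: DMSO nuclear replicate 1 was the highest nuclear library, and JQ1-VHL nuclear replicate 3 was the shallowest of all, with 30.5% of its intervals at 0. All 10 listed luminal breast markers were present. Of 16 markers of other lineages or breast subtypes 3 had values (COL1A1, ALB and ESR1). Together they held 352 to 631 units in the DMSO nuclei and 101 to 238 units in the JQ1-VHL nuclei. ESR1, which luminal cells can also express, had 15 summed nuclear reads in DMSO and 2 under JQ1-VHL. The part of these 3 markers in the results was not tested. Results are given on the ERCC scale and after rescaling each library by a median-of-ratios factor, which sets a gene against the typical gene. The factor was taken over the tested genes with values above 0 in all 18 libraries, so the typical gene is typical of those. The median change of all tested genes was -1.82 on the ERCC scale and -0.01 after rescaling in the nucleus. Changes are log2 estimates ± SE from limma on log2(value + 1), with 3 libraries a group and a threshold of 0.05 on the adjusted p. Adding 1 tends to understate the change of low genes. Where 1 read is worth more than 1, a count of 0 reads can also enlarge the change.

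In the nucleus 9 of the 42 tested repair genes fell under JQ1-VHL and none rose, on the ERCC scale. The lower genes came from 4 roles: RBBP8, NBN and EXO1 of end resection, FANCG, FANCL and FANCE of the Fanconi anaemia core complex, RNF8 and TP53BP1 of chromatin signalling, and PARP2, a DNA-damage-activated poly(ADP-ribose) polymerase. The 9 are 21.4% of the members, against 33.7% of all tested genes called lower; 0.177% of all genes were called higher. At an unadjusted p under 0.05 the count was 17 members (40.5%, against 49.2% of all genes). The median log2 change of the members was -1.66, beside -1.82 for all tested genes, and 41 of the 42 estimates were below 0. In batches 1, 2 and 3 of the labels, which number the replicates, the members' median was -2.11, -0.44 and -2.06 (-2.23, -0.72 and -2.42 over all genes). Every JQ1-VHL library was below every DMSO library in 24 members (57.1%, against 71.2% of all genes), and above in 0 (0.353% of all genes). The 9 lower genes, called from these same libraries, were below 0 in each batch, which adds no support. Over all members 42, 29 and 42 were below 0.

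These calls leaned on 2 libraries: without DMSO nuclear replicate 1 only RNF8 remained lower (adjusted p = 0.0319), and without JQ1-VHL nuclear replicate 3 the count was 0, with RNF8 no longer called at -3.52 (adjusted p = 0.0514). With the batch as a block of 3 levels 13 members were lower, BRCA2, BARD1, FANCB and TOPBP1 being added, and with a block for each batch and fraction 8 were, TP53BP1 being lost. The calls also moved with the tool: edgeR with ERCC factors called 8, without FANCE, and DESeq2 called 13, without FANCE and with BRCA2, BARD1, FANCB, FANCM and TOPBP1 added. A pseudocount of 10 added BRCA2, and with no filter TP53BP1 was lost. With a gene's highest interval in place of its sum 5 were lower: RBBP8, EXO1, FANCE, TP53BP1 and PARP2 were lost and CHEK2 was added. Over all 10191 tested genes the omissions of the 2 libraries left 301 and 228 lower genes of 3435. With ERCC factors edgeR called 2536 genes lower and DESeq2 4140. The larger pseudocount gave 3689, the highest interval 2517 and the block of 3 levels 4238. The member counts thus moved with those of all genes and are not particular to the members. The fit on this scale borrowed so much information across genes that it treated the variance as nearly known, so its calls carry more certainty than 3 libraries can give.

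**Figure D1:**
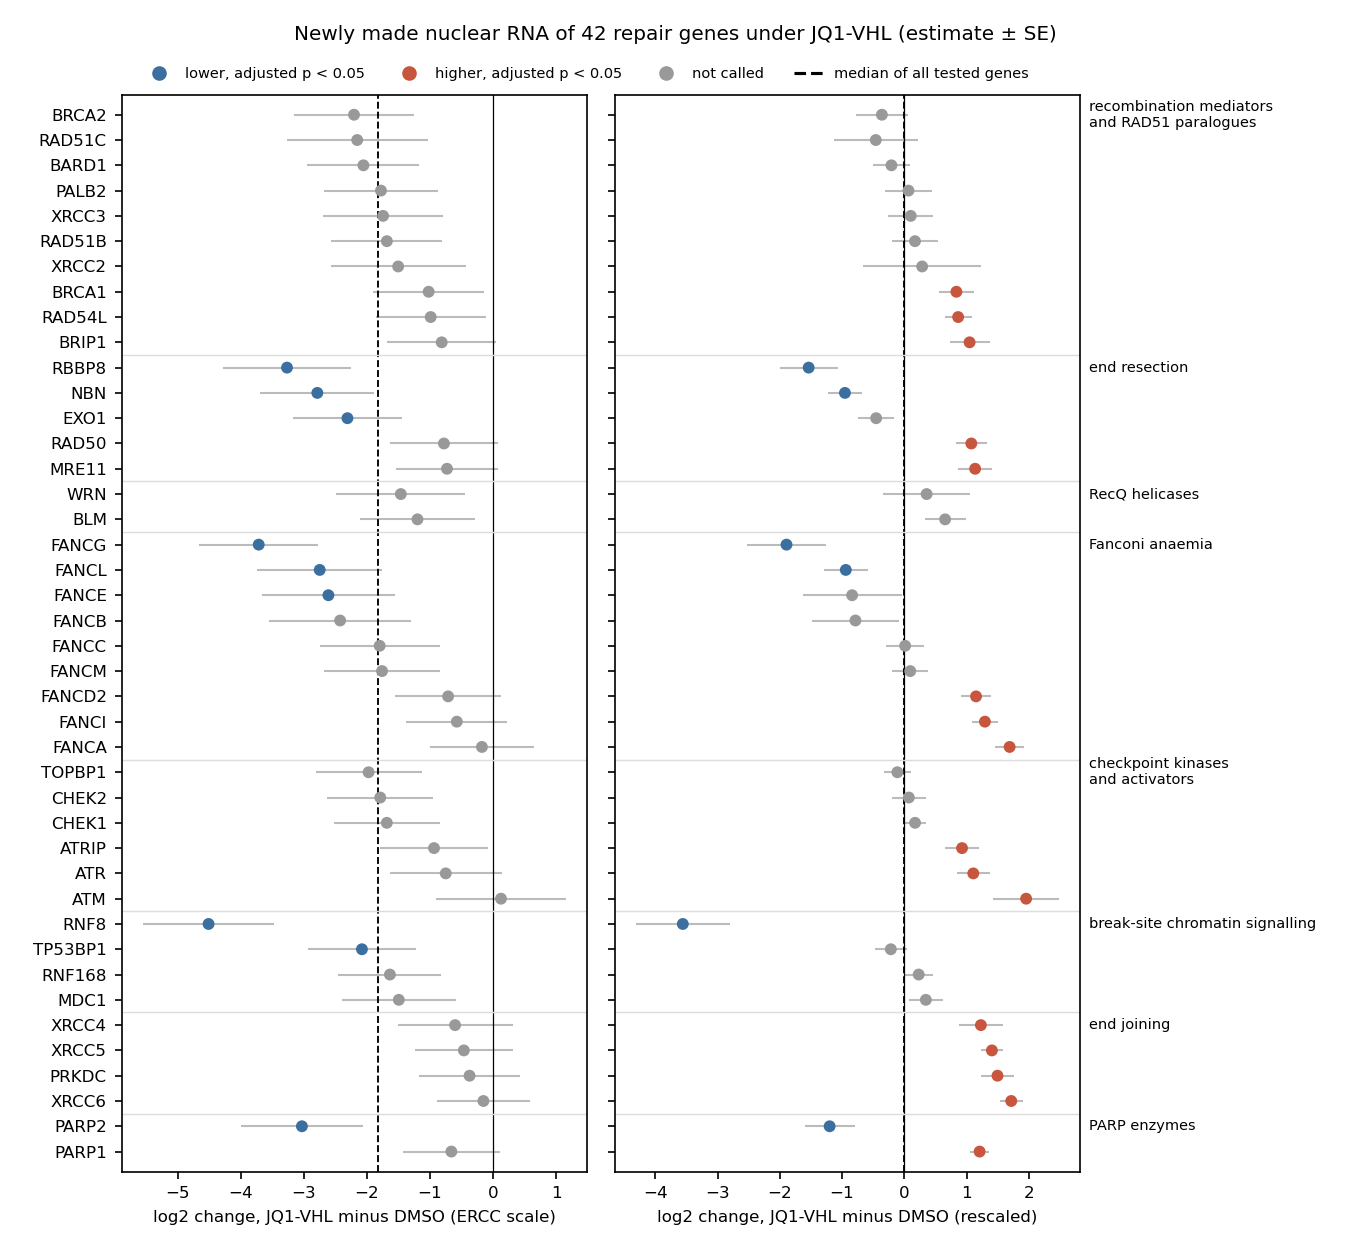
Log2 change of nuclear new RNA under JQ1-VHL for the 42 tested repair genes, grouped by role, on the ERCC scale (left) and after rescaling (right). Points are limma estimates and bars their SE (3 libraries a group), colour marks calls, and the dashed line is the median of all 10191 tested genes (-1.82 and -0.01). On the left 9 genes are lower; on the right 6 are lower and 16 higher.

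RNF8, the ubiquitin ligase that is recruited by MDC1 to break sites, had the lowest change of all members. Its nuclear values were 144, 72.4 and 65.4 units in DMSO replicates 1, 2 and 3 and 5.85, 7.75 and 0 units in the JQ1-VHL replicates, and the last of these is a count of 0 reads, which allows up to 3 reads. The groups did not overlap, and the change was -4.51 ± 1.04 (adjusted p = 0.00105) on the ERCC scale and -3.56 ± 0.75 (adjusted p = 0.00195) after rescaling. By batch the rescaled change was -2.27, -2.35 and -6.05, the last from the library with 0 reads. RNF8 lies at chr6:37353972-37394738 on the plus strand (GRCh38), and 1 of its intervals held 69.1% of its DMSO nuclear units. TP53BP1, which limits end resection, had 769, 329 and 334 units in DMSO and 106, 152 and 67.9 units under JQ1-VHL. Its groups did not overlap either; the change was -2.08 ± 0.86 (adjusted p = 0.0473) and, relative to other genes, -0.22 ± 0.26 (adjusted p = 0.549). MDC1, the scaffold bound to phosphorylated H2AX, and RNF168, the ligase that extends the ubiquitin mark, did not pass the test, at -1.49 and -1.64 on the ERCC scale.

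Among the 5 end resection genes 3 fell on the ERCC scale, and RAD50 and MRE11 were not called. RBBP8 (CtIP), which starts resection together with the MRE11 complex, had 212, 90.9 and 68.7 units in DMSO and 15.4, 23.2 and 2.85 units under JQ1-VHL in the nucleus. NBN, the subunit that ties this complex to ATM, had 334, 148 and 159 units in DMSO and 35.6, 43.9 and 13.8 units under JQ1-VHL. EXO1, the nuclease of long-range resection, had 1005, 369.9 and 279.8 units in DMSO and 149, 182 and 30.4 units under JQ1-VHL. In each of these genes every JQ1-VHL library was below every DMSO library, and the changes were -3.27 ± 1.01 (adjusted p = 0.0109), -2.79 ± 0.90 (adjusted p = 0.0142) and -2.31 ± 0.86 (adjusted p = 0.0286). RAD50, the ATPase of the complex, had 226, 93.2 and 106 units in DMSO and 91.5, 100.1 and 47.5 units under JQ1-VHL, so its groups overlapped, and its change was -0.78 ± 0.86 (adjusted p = 0.423); MRE11, the nuclease, was at -0.73 ± 0.81 (adjusted p = 0.426). After rescaling RBBP8 and NBN stayed lower, at -1.54 ± 0.47 (adjusted p = 0.0186) and -0.95 ± 0.27 (adjusted p = 0.0141), EXO1 was not called (-0.45), and RAD50 and MRE11 were higher, at 1.08 ± 0.25 (adjusted p = 0.00376) and 1.14 ± 0.27 (adjusted p = 0.00444). NBN shares its 5′ end with DECR1 on the opposite strand, so reads of the pair cannot be told apart there.

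The 9 tested Fanconi anaemia genes held 3 that fell on the ERCC scale and, relative to other genes, members on both sides. FANCG, a scaffold of the core complex and with 6.18 kb the shortest of the 43 genes (chr9:35073835-35080016, minus strand), had 1193, 464 and 382 units in DMSO and 97.9, 104 and 8.08 units under JQ1-VHL. FANCL, the ubiquitin ligase of the core complex, had 233, 79.7 and 104 units in DMSO and 19.1, 32.9 and 8.55 units under JQ1-VHL, and FANCE, which links that complex to FANCD2, had 377, 122 and 95.0 units in DMSO and 47.3, 83.3 and 3.80 units under JQ1-VHL. No JQ1-VHL library reached the DMSO range in these 3 genes; FANCG was at -3.71 ± 0.94 (adjusted p = 0.00264), FANCL at -2.75 ± 0.99 (adjusted p = 0.0244) and FANCE at -2.61 ± 1.05 (adjusted p = 0.0424). FANCD2, the protein that the core complex ubiquitinates, had 627, 251 and 195 units in DMSO and 232, 258 and 115 units under JQ1-VHL, and FANCA, a core complex subunit, had 902, 542 and 417 units in DMSO and 588, 738 and 325 units under JQ1-VHL. Both overlapped between the groups and neither was called on the ERCC scale, FANCD2 at -0.71 ± 0.84 (adjusted p = 0.452) and FANCA at -0.18 ± 0.83 (adjusted p = 0.844). Relative to other genes FANCG (-1.89 ± 0.63, adjusted p = 0.0290) and FANCL (-0.94 ± 0.35, adjusted p = 0.0497) were lower, while FANCA (1.69 ± 0.24, adjusted p = 7.22e-05), FANCD2 (1.15 ± 0.23, adjusted p = 0.00142) and its partner FANCI (1.30 ± 0.21, adjusted p = 0.000241) were higher. FANCB, FANCC, FANCM and FANCE were called in neither direction after rescaling, between -0.84 and 0.10. FANCL overlaps VRK2, FANCA overlaps ZNF276, FANCI overlaps POLG and FANCD2 overlaps FANCD2OS, and a pseudogene is named after FANCD2, so part of their reads may belong to another locus.

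PARP2 and PARP1, which both attach ADP-ribose chains at breaks, were on opposite sides once rescaled. PARP2 had 593, 253 and 201 units in DMSO and 61.7, 73.6 and 10.9 units under JQ1-VHL and did not overlap between groups; PARP1 had 3741, 1866 and 1450.2 units in DMSO and 1731, 2119 and 697 units under JQ1-VHL and did. The changes were -3.03 ± 0.96 (adjusted p = 0.0126) for PARP2 and -0.66 ± 0.77 (adjusted p = 0.449) for PARP1 on the ERCC scale, and -1.20 ± 0.40 (adjusted p = 0.0307) and 1.21 ± 0.15 (adjusted p = 2.02e-05) after rescaling.

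**Figure D2:**
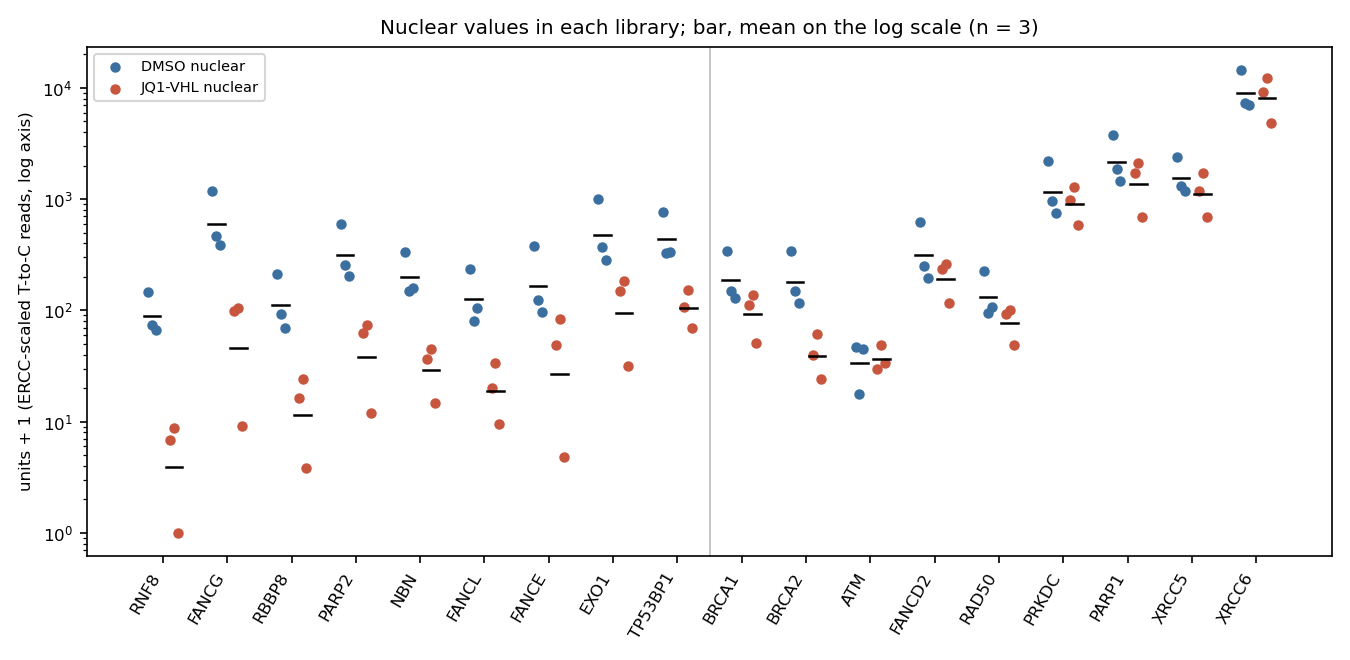
Nuclear units + 1 (log axis) in each library for the 9 genes called lower (left of the line) and 9 further genes described throughout (right); bars are means on the log scale of 3 libraries. In RNF8 the JQ1-VHL libraries sit at 0 to 7.75 units and the DMSO libraries at 65.4 to 144 units, while in XRCC6 the groups overlap.

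None of the 10 tested homologous recombination genes was called by limma on the ERCC scale, although BRCA2 and BARD1 were by DESeq2 (adjusted p = 0.0165 and 0.0201) and with the block of 3 batches. BRCA1, the ubiquitin ligase that promotes resection and recruits PALB2, had 343, 148 and 128 units in DMSO and 111, 137 and 50.4 units under JQ1-VHL, and BRCA2, a partner of PALB2 in recombination, had 339.8, 148 and 114 units in DMSO and 38.8, 60.7 and 23.3 units under JQ1-VHL. BRCA1 overlapped between the groups; in BRCA2 every JQ1-VHL library was below every DMSO library. The estimates were -1.02 ± 0.88 (adjusted p = 0.312) for BRCA1 and -2.20 ± 0.94 (adjusted p = 0.0544) for BRCA2, the latter just short of the threshold. BARD1, the partner of BRCA1, was at -2.06 ± 0.89 (adjusted p = 0.0568), and PALB2, the bridge between BRCA1 and BRCA2, at -1.78 ± 0.91 (adjusted p = 0.102). Relative to other genes BRCA1 (0.84 ± 0.29, adjusted p = 0.0333), the helicase BRIP1 (1.05 ± 0.32, adjusted p = 0.0198) and RAD54L, a motor protein of strand exchange (0.87 ± 0.22, adjusted p = 0.00646), were higher; with edgeR and TMM the call of BRCA1 was lost (0.66, adjusted p = 0.0793). BRCA2 was at -0.36 ± 0.42 (adjusted p = 0.535), and the recombination genes RAD51B, RAD51C, XRCC2 and XRCC3 lay between -0.46 and 0.29 without a call. The RecQ helicases BLM and WRN, which unwind recombination intermediates, were not called on either scale, at 0.66 and 0.36 after rescaling.

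Of the 6 checkpoint genes none was called by limma on the ERCC scale, and the 3 nearest the damage signal were higher after rescaling. ATM, the kinase that answers double-strand breaks, had 45.9, 16.8 and 44.2 units in DMSO and 28.7, 47.8 and 32.8 units under JQ1-VHL, which overlap, and was the one member with an estimate above 0, 0.12 ± 1.02 (adjusted p = 0.911). Rescaled, ATM stood at 1.96 ± 0.53 (adjusted p = 0.00949), ATR, the kinase of single-stranded DNA, at 1.11 ± 0.26 (adjusted p = 0.00431) and its partner ATRIP at 0.93 ± 0.27 (adjusted p = 0.0164). CHEK1 and CHEK2, the effector kinases, and TOPBP1, the activator of ATR, were not called by limma on either scale, between -0.11 and 0.17 after rescaling. On the ERCC scale TOPBP1 (-1.97 ± 0.84, adjusted p = 0.0537) was called by DESeq2 (adjusted p = 0.0168) and with the block of 3 batches (adjusted p = 0.0383), and CHEK2 by its highest interval (-2.26, adjusted p = 0.0356). ATM overlaps NPAT and C11orf65, and ATRIP overlaps TREX1.

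The end-joining genes had the nuclear estimates nearest 0 of the 8 roles on the ERCC scale (median -0.42, not called) and the highest after rescaling (median 1.45). XRCC6 (Ku70) had 14449, 7338 and 7011 units in DMSO and 9194, 12261 and 4789.5 units under JQ1-VHL, and XRCC5 (Ku80) had 2383, 1310.0 and 1174 units in DMSO and 1185, 1711 and 689 units under JQ1-VHL. PRKDC, the catalytic subunit of DNA-dependent protein kinase, had 2208, 958 and 751 units in DMSO and 978, 1274 and 586 units under JQ1-VHL. In all 3 the groups overlapped and JQ1-VHL replicate 2 was above DMSO replicates 2 and 3. On the ERCC scale none was called: XRCC6 -0.15 ± 0.74 (adjusted p = 0.849), XRCC5 -0.46 ± 0.78 (adjusted p = 0.592), PRKDC -0.37 ± 0.80 (adjusted p = 0.672). After rescaling all 4 tested end-joining genes were higher, XRCC6 at 1.72 ± 0.18 (adjusted p = 5.15e-06), PRKDC at 1.50 ± 0.27 (adjusted p = 0.000540), XRCC5 at 1.41 ± 0.18 (adjusted p = 2.57e-05) and XRCC4, the ligase scaffold, at 1.23 ± 0.35 (adjusted p = 0.0142). XRCC6 alone made up 35.1 to 39.6% of the members' nuclear units in the DMSO libraries and 50.9 to 53.0% under JQ1-VHL. LIG4, the ligase itself, was too low to test: it had 45, 23 and 24 nuclear reads in DMSO and 5, 2 and 4 under JQ1-VHL. Its total RNA libraries had 15, 11 and 8 reads in DMSO and 2, 0 and 0 under JQ1-VHL, and its cytoplasmic ones 2, 2 and 6 reads in DMSO and 0, 0 and 0 under JQ1-VHL. In each fraction every JQ1-VHL library had fewer reads than every DMSO library, with no scaling between libraries. The share of all genes doing so was not counted, so this says nothing particular about LIG4. The JQ1-VHL nuclear libraries were also shallower, at 1.58 to 3.15 M reads against 4.55 to 5.93 M in DMSO. A count of 0 allows up to 3 reads, so the cytoplasmic separation lies within counting error. Several pseudogenes are named after XRCC6, and others after PARP1, MRE11, RBBP8 and CHEK2. Another named gene overlaps 16 of the 43 members in the table, also MRE11, RAD50, RAD54L, XRCC4 and TP53BP1. Which reads these loci drew was not tested.

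Counted over all roles, 6 members (14.3%, against 12.5% of all tested genes) were lower and 16 (38.1%, against 18.2%) were higher in the nucleus after rescaling, with a median of 0.20 for the members. The members' summed share of a library was 0.761 to 0.848% of the units in the DMSO nuclei and 1.18 to 1.20% in the JQ1-VHL nuclei. XRCC6, XRCC5 and PARP1 carried this difference: without them the share was 0.347 to 0.425% in DMSO and 0.379 to 0.394% under JQ1-VHL, which overlap. All 22 rescaled calls had the same direction in each of the 3 batches. The calls were made from these same libraries, so this adds no support. The lower call of RNF8 and 11 of the higher calls (ATR, FANCA, FANCD2, FANCI, MRE11, PARP1, PRKDC, RAD50, RAD54L, XRCC5 and XRCC6) held without any single library. Without DMSO nuclear replicate 1, 2 or 3 or without JQ1-VHL nuclear replicate 3, 2 lower genes remained. The others lost in one or more of these fits were NBN, RBBP8, FANCG, FANCL, PARP2, BRCA1, BRIP1, ATM, ATRIP and XRCC4. Under the block of 3 batches FANCL was lost, and under that by batch and fraction FANCL and BRCA1. Across the 42 members the rescaled change went with gene span (Spearman rho 0.33), number of intervals (0.34) and DMSO total units (0.40), given as a description over genes that share libraries and depth.

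In total RNA no member was called on the ERCC scale, where 2.79% of all tested genes were lower and 0.245% higher; 3 members had an unadjusted p under 0.05 (7.14%, against 16.8% of all genes). With ERCC factors edgeR called 1 member lower (FANCG), as did limma with the block of 3 batches, and DESeq2 called 3 (FANCG, PARP2 and RBBP8). The lowest were FANCG at -2.81 ± 0.94 (adjusted p = 0.0714), PARP2 at -2.45, RBBP8 at -2.28, FANCE at -1.84 and RAD51C at -1.83. FANCG had 953, 181 and 173 units in DMSO and 106, 48.1 and 15.6 units under JQ1-VHL. Its groups did not overlap, but the share of all genes without overlap in total RNA was not counted. DMSO replicate 1 was far above the other libraries. The highest were ATM (0.81), FANCA (0.75), XRCC6 (0.72), XRCC4 (0.68) and FANCD2 (0.67). BRCA1 was at 0.23, BRCA2 at -1.03, RAD50 at 0.31, XRCC5 at 0.58, PRKDC at 0.62 and PARP1 at 0.63. The members' median was -0.26 (all genes -0.49) and, by batch, -1.36, 0.42 and -0.03.

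Relative to other genes, 7 members were lower in total RNA (16.7%, against 18.3% of all) and 9 higher (21.4%, against 12.2%); the median change of all genes was -0.19 on this scale. The lower genes were FANCG (-2.51 ± 0.63, adjusted p = 0.00781), PARP2 (-2.15 ± 0.40, adjusted p = 0.00163), RBBP8 (-1.98 ± 0.47, adjusted p = 0.00582), EXO1 (-1.21), FANCL (-1.08), BARD1 (-1.04) and NBN (-1.0). The higher genes were FANCA (1.05), XRCC6 (1.02), XRCC4 (0.98), FANCD2 (0.97), PARP1 (0.93), PRKDC (0.92), XRCC5 (0.88), FANCI (0.85) and MRE11 (0.74). RNF8, the lowest in the nucleus, was at -1.42 ± 0.75 (adjusted p = 0.154) here and was not called. All 16 calls, made from these same libraries, had the same direction in each batch, which adds no support. Calls that held without any single library were the lower EXO1, PARP2 and RBBP8 and the higher FANCA, FANCD2, FANCI, PARP1, XRCC5 and XRCC6. Each of the 6 omissions ended some of the others: XRCC4 was lost in each, and NBN, BARD1, FANCL, FANCG, MRE11 and PRKDC without 1 or more.

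In the cytoplasm no member was called on the ERCC scale either (3.67% of all tested genes were lower and 0.226% higher), and 1 member had an unadjusted p under 0.05 (2.38%, against 13.2% of all genes). With ERCC factors edgeR and DESeq2 also called 0. The lowest were FANCE at -2.10 ± 1.05 (adjusted p = 0.360), BRCA2 at -1.63, FANCB at -1.60, RBBP8 at -1.21 and PALB2 at -1.19; the highest were ATM (1.31), FANCI (1.18), XRCC6 (1.13), BRCA1 (1.04) and PRKDC (0.96). FANCD2 was at 0.67, RAD50 at 0.65, XRCC5 at 0.71 and PARP1 at 0.75. The estimate of FANCE rested on 14, 15 and 20 reads in DMSO and 5, 6 and 0 under JQ1-VHL. The members' median of 0.25 (all genes -0.02) was -0.19, 2.39 and -1.54 in batches 1, 2 and 3, and the DMSO libraries spanned a wider range than the JQ1-VHL libraries. XRCC6, for example, had 69261, 14099 and 81479.8 units in DMSO and 101317, 113898 and 72226 units under JQ1-VHL.

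Rescaled cytoplasmic values gave 5 lower members (11.9%, against 15.9% of all) and 11 higher (26.2%, against 14.8%). The lower ones were NBN (-1.06 ± 0.27, adjusted p = 0.00787), BRCA2 (-1.57 ± 0.42, adjusted p = 0.0100), EXO1 (-1.0 ± 0.29, adjusted p = 0.0142), PALB2 (-1.13 ± 0.38, adjusted p = 0.0321) and FANCE (-2.14 ± 0.79, adjusted p = 0.0484). BRCA1 stood opposite to its partners PALB2 and BRCA2, at 1.11 ± 0.29 (adjusted p = 0.00768): rescaled, it had 149, 101 and 62.6 rescaled units in DMSO and 179, 209.6 and 259 rescaled units under JQ1-VHL, against 78.5, 96.5 and 57.8 rescaled units in DMSO and 56.6, 24.1 and 11.1 rescaled units under JQ1-VHL for BRCA2. The groups did not overlap in either gene, but the share of all genes without overlap was not counted here. FANCE was near the floor, and its rescaled change by batch was -0.64, -1.43 and -4.34. The last of these came from a JQ1-VHL library with 0 reads, which allows up to 3 reads. The other higher genes were FANCI (1.24), XRCC6 (1.19), PRKDC (1.02), PARP1 (0.81), MRE11 (0.78), XRCC5 (0.78), RAD54L (0.78), FANCD2 (0.73), RAD50 (0.71) and FANCA (0.68). All 16 calls, made from these same libraries, had the same direction in each batch, which adds no support. NBN, BRCA1, FANCI, PARP1, PRKDC, XRCC5 and XRCC6 stayed called without any single library. Without JQ1-VHL cytoplasmic replicate 3 the calls of BRCA2, PALB2, FANCE, MRE11, RAD50, FANCA and FANCD2 were lost, and each other omission ended between 1 and 5 calls.

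Side by side over the 3 fractions, NBN was lower in each after rescaling, and FANCA, FANCD2, FANCI, MRE11, PRKDC, XRCC5, XRCC6 and PARP1 were higher in each. FANCI, PARP1, XRCC5 and XRCC6 were higher in all 3 fractions also without any single library. The share of all tested genes called alike in all 3 fractions was not counted, so these lists say nothing particular about the members. RNF8 was called in the nucleus, at -3.56, and stood at -1.42 in total and 0.26 in cytoplasmic RNA without a call. The difference between the nuclear and the cytoplasmic effect was tested itself, and limma called no member on either scale (0 of all tested genes on the ERCC scale; 1.37% of all genes lower and 1.45% higher after rescaling). The lowest differences were RNF8 at -4.70 ± 1.48 (adjusted p = 0.220) and FANCG at -3.67 ± 1.34 (adjusted p = 0.284), and RNF8 was at -3.82 ± 1.07 (adjusted p = 0.0593) after rescaling. At an unadjusted p under 0.05 the count was 2 members on the ERCC scale (4.76%, against 15.3% of all genes); with ERCC factors edgeR and DESeq2 also called 0 members, while edgeR with TMM called RNF8 lower (-3.28, adjusted p = 0.0300).

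**Figure D3:**
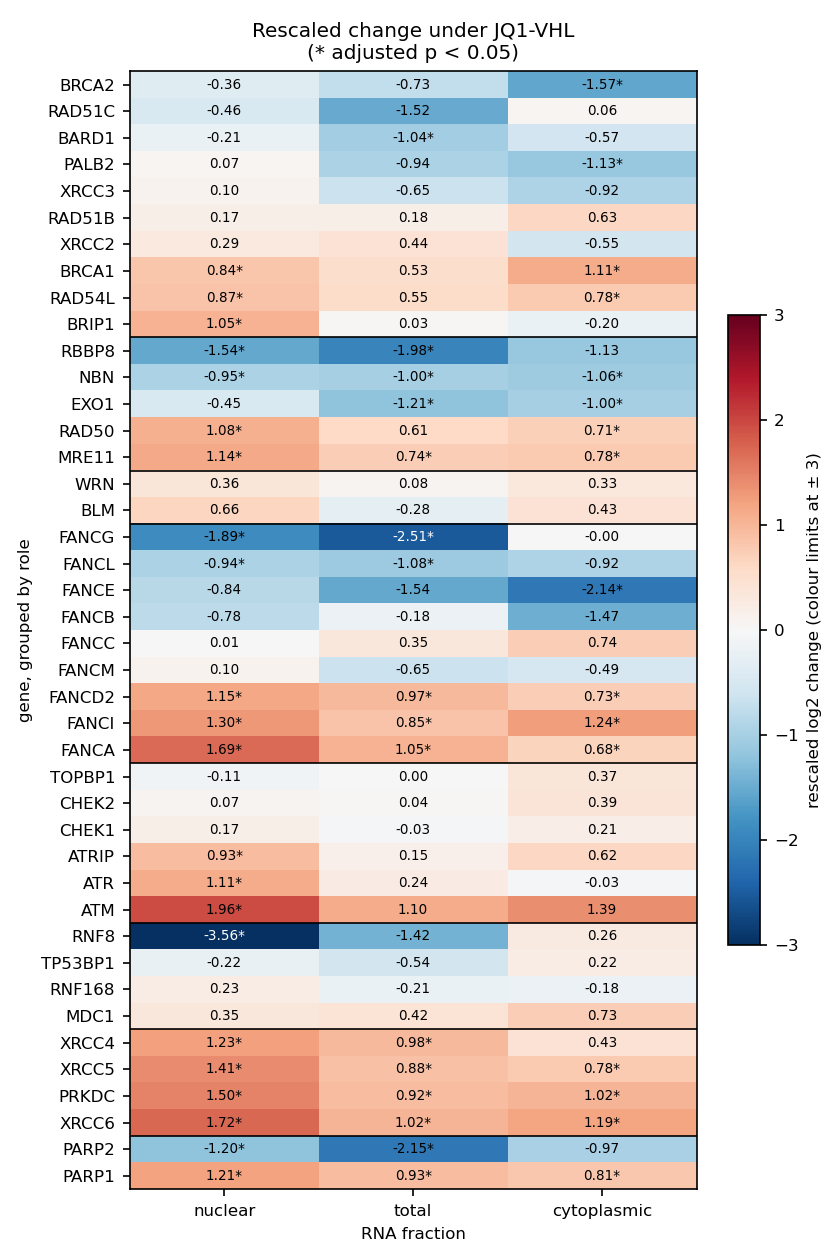
Rescaled log2 change under JQ1-VHL of the 42 tested members in nuclear, total and cytoplasmic RNA, grouped by role; colour and number give the estimate, and an asterisk an adjusted p under 0.05. The end-joining genes are red in all 3 columns, from 0.43 to 1.72, and RNF8 is deep blue in the nucleus at -3.56.

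Nuclear and cytoplasmic RNA were also compared within each treatment. On the ERCC scale this is per mass of RNA, so the differences do not give a gene's split within a cell. In DMSO 3 members were higher in the nucleus (7.14%, against 14.7% of all tested genes): FANCG at 4.77 ± 0.94 (adjusted p = 0.000108), FANCE at 2.82 ± 1.05 (adjusted p = 0.0394) and PARP2 at 2.67 ± 0.96 (adjusted p = 0.0322). PARP1 (-2.52 ± 0.77, adjusted p = 0.0112), XRCC5 (-2.35 ± 0.78, adjusted p = 0.0195) and XRCC6 (-2.25 ± 0.74, adjusted p = 0.0188) were lower there (7.14%, against 5.92%). FANCG had 1193, 464 and 382 units in the DMSO nuclei and 42.9, 12.7 and 16.5 units in the DMSO cytoplasm. These did not overlap, but the share of all genes without overlap was not counted here. FANCG was the call that held without any single library. The other 5 calls were lost without DMSO nuclear replicate 2 or 3; DMSO nuclear replicate 1 and cytoplasmic replicate 2 decided FANCE and PARP2, cytoplasmic replicate 1 FANCE, XRCC5, XRCC6 and PARP1, and cytoplasmic replicate 3 XRCC5. After rescaling 11 members were higher (33% of all genes) and 9 lower (23.7%).

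Under JQ1-VHL no member was higher in the nucleus (3.01% of all genes were) and 12 were lower (28.6%, against 28.8%): PARP1, RNF8, XRCC5, XRCC6, CHEK1, XRCC4, MRE11, RAD50, MDC1, FANCC, TOPBP1 and RAD54L. RNF8 was at -3.61 ± 1.04 (adjusted p = 0.00327), but by its highest interval it was at 0.54 without a call. Without JQ1-VHL nuclear replicate 3 the calls of RNF8, RAD54L, FANCC, TOPBP1 and MDC1 were lost, which left 7. RAD54L, FANCC and TOPBP1 were also lost without JQ1-VHL nuclear replicate 1, and these and MDC1 without JQ1-VHL cytoplasmic replicate 1 or 2. After rescaling 16 members were higher and 12 lower, against 38.7% and 26% of all genes. The comparison shares its nuclear and cytoplasmic libraries with the drug comparisons, so the values stand side by side only: RNF8 was at 0.93 in DMSO and -2.89 under JQ1-VHL (rescaled), and FANCG at 4.57 and 2.68.

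**Figure D4:**
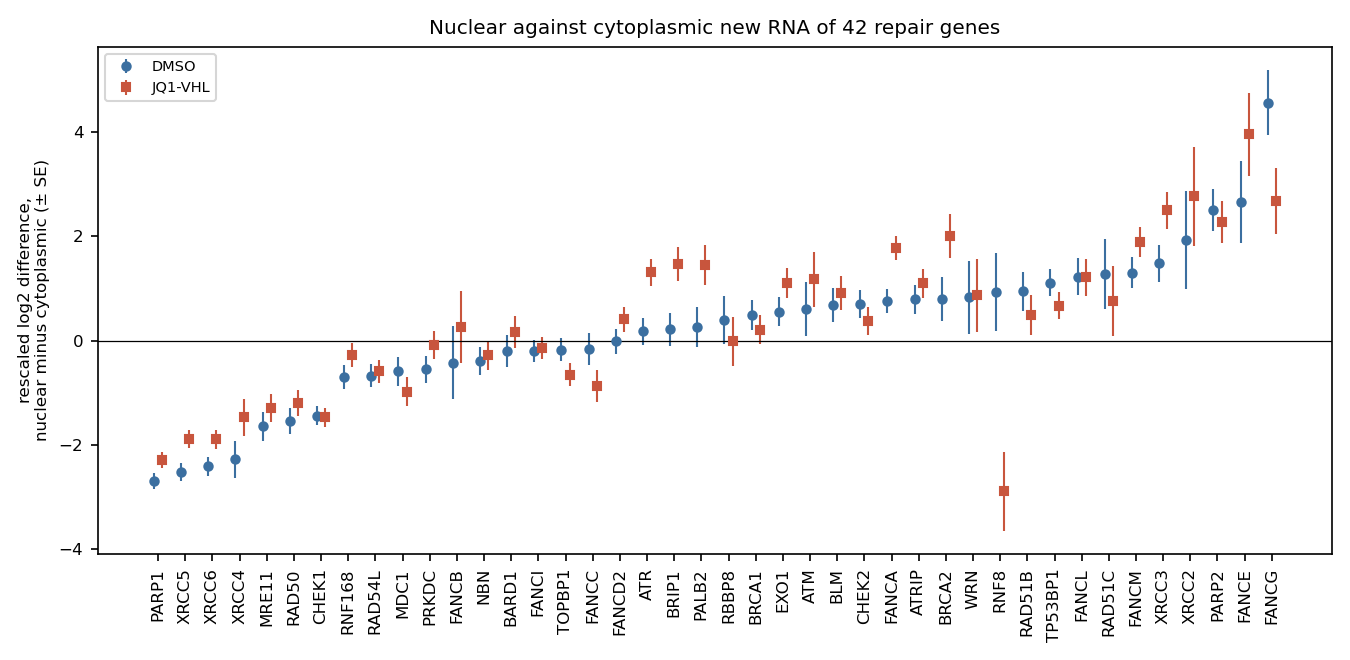
Rescaled log2 difference of nuclear minus cytoplasmic new RNA for the 42 members, in DMSO (circles) and under JQ1-VHL (squares), ordered by the DMSO value; bars are SE with 3 libraries a group. FANCG is the highest in DMSO at 4.57, PARP1 the lowest at -2.69, and RNF8 lies at 0.93 in DMSO and -2.89 under JQ1-VHL.

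The intervals of a gene allow a comparison within a library, which needs no scale between libraries: a gene's intervals, in transcript order, were split into 3 parts, and the log2 ratio of the first to the last part was taken over 5399 genes with enough intervals, 32 of them members. NBN was the member called in every fraction. Its nuclear log2 ratios were -3.53, -2.61 and -2.90 in DMSO and -0.80, -0.94 and -0.86 under JQ1-VHL. These did not overlap, but the share of all genes without overlap in the ratio was not counted. The last part went from a mean of 149 units to 13.4 units and the first part, much lower in DMSO, from 16.3 to 6.81 units. The ratio rose by 2.15 ± 0.48 (adjusted p = 0.0187) in nuclear, 2.15 ± 0.48 (adjusted p = 0.0141) in total and 2.19 ± 0.48 (adjusted p = 0.0120) in cytoplasmic RNA. The first part of NBN holds the 5′ end shared with DECR1. There intervals 14 and 15 had equal cytoplasmic units in every library (39.6, 6.07 and 162 in DMSO), so the same reads may count in both. In the cytoplasm each had a mean of 69.4 of the first part's 182 units in DMSO, and 21.3 of 68.3 units under JQ1-VHL. In the DMSO nuclei they had 2.44 and 2.38 of 16.3 units. The ratio of NBN without these intervals was not tested. BLM also rose in the cytoplasm, by 3.03 ± 0.69 (adjusted p = 0.0138). Its last part went from a mean of 41.8 units to 3.99 units there, and its first part from 25.7 to 38.0 units. In the JQ1-VHL cytoplasmic libraries 1 read was worth 1.40 to 2.15 units, so that last part lies within the floor of 3 reads. With a mean of at least 50 required in both parts, BLM was no longer called. Thus 1, 1 and 2 of 32 members were called higher in nuclear, total and cytoplasmic RNA, against 6.26, 8.54 and 7.11% of the genes with a ratio, and no member was called lower, against 1.56, 3.28 and 3.87%.

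The nuclear NBN call was lost without DMSO nuclear replicate 1 (1.89, adjusted p = 0.0961), without DMSO nuclear replicate 3 (2.20, adjusted p = 0.0529) and without JQ1-VHL nuclear replicate 3 (2.14, adjusted p = 0.0679); the total call was lost without DMSO total replicate 3 (adjusted p = 0.0594). Of the other members the highest nuclear values were TP53BP1 (2.43 ± 0.83, adjusted p = 0.0880), TOPBP1 (1.33) and CHEK1 (1.26), and the lowest EXO1 (-1.43), PARP1 (-0.89), BRCA1 (-0.79) and ATRIP (-0.43). In total RNA TP53BP1 (2.15), BLM (1.55) and BRCA2 (1.20) were at the upper end and RBBP8 (-1.70), ATRIP (-1.69), EXO1 (-1.01) and FANCD2 (-0.93) at the lower. In the cytoplasm RAD50 (2.37) and TP53BP1 (1.43) were high beside the called genes, and FANCD2 (-2.49), EXO1 (-2.35), RBBP8 (-1.96) and BRIP1 (-1.74) low. None of these passed the test, although the block of 3 batches called FANCI and TP53BP1 higher in nuclear and total RNA. The median change of the ratio over the members was 0.43, 0.28 and 0.08 in the 3 fractions, beside 0.31, 0.27 and 0.13 over all genes with a ratio.

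Single intervals departed from the rest of their gene. FANCI and TP53BP1 were chosen for this after their values were seen, so no test is given. Interval 26 of FANCI had 307, 239 and 238 nuclear units in DMSO and 300.0, 369 and 185 under JQ1-VHL, with overlapping groups, while its other 39 intervals summed to 1172 ± 529 units in DMSO and 711 ± 364 (mean ± SD) under JQ1-VHL. Interval 29, nearby, had a mean of 69.1 units in DMSO and 16.2 under JQ1-VHL. Interval 9 of TP53BP1, the 15th in transcript order, had 102, 78.6 and 78.5 units in DMSO and 47.3, 69.7 and 45.6 under JQ1-VHL, whereas the other 22 intervals went from 391 ± 239 to 54.5 ± 30.1 units.

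**Figure D5:**
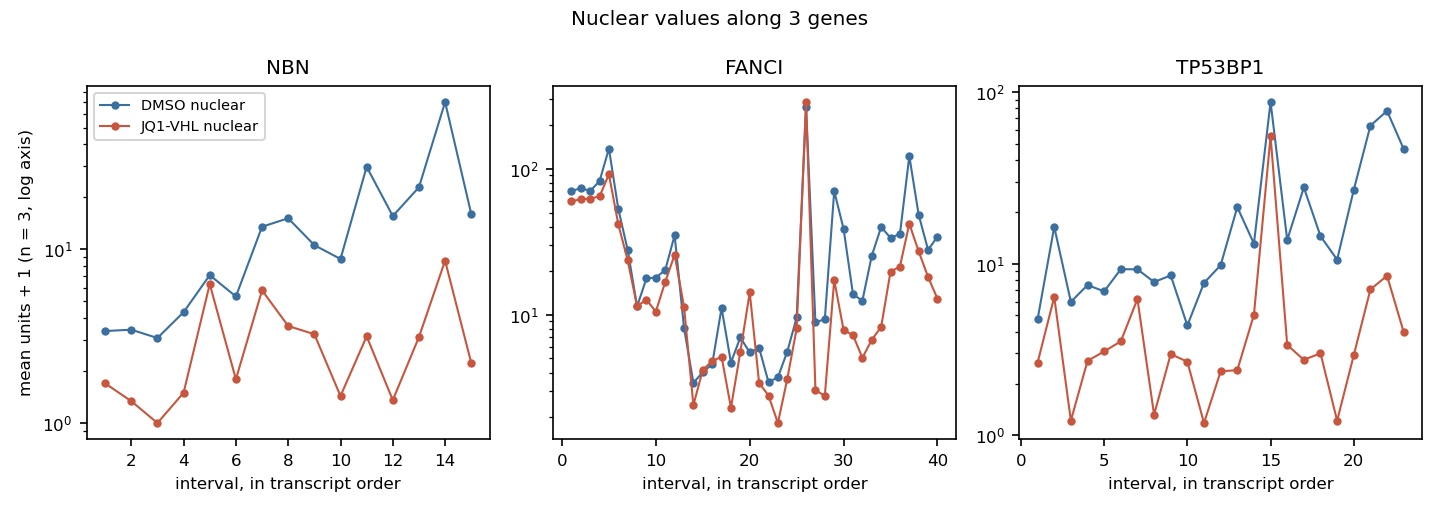
Mean nuclear units + 1 of 3 libraries (log axis) in each interval of NBN, FANCI and TP53BP1, in transcript order, for DMSO (blue) and JQ1-VHL (red). In NBN the lines part toward the end of the gene; in FANCI and TP53BP1 single intervals reach 261 and 86.2 units in DMSO and 285 and 54.2 units under JQ1-VHL.

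The wider pathway was read from 80 other genes of break repair, fork protection and damage signalling, of which 71 were in the table and 70 tested. In the nucleus 27 of them fell (38.6%, against 33.7% of all tested genes) and none rose on the ERCC scale, with a median of -1.86, and after rescaling 11 were lower and 11 higher (15.7% each, against 12.5% and 18.2%), all near the background. The lowest were WDR48, the cofactor of the deubiquitinase that acts on FANCD2 (-4.41 ± 1.08, adjusted p = 0.00192), DCLRE1A, a crosslink repair nuclease (-3.72 ± 1.12, adjusted p = 0.00906), and KAT5, the acetyltransferase that activates ATM (-3.71 ± 1.10, adjusted p = 0.00808); the highest were CDKN1A, the cell cycle inhibitor p21 (1.04), SPIDR (-0.71) and RAD52 (-0.75), none called. In total RNA 2 fell, the nuclease gene MUS81 (-4.07 ± 1.11, adjusted p = 0.0196) and DCLRE1A (-3.94 ± 1.12, adjusted p = 0.0252), with WDR48 next (-3.20 ± 1.08, adjusted p = 0.0743) and CDKN1A (1.53), RPA3 (0.60) and USP28 (0.58) highest. In the cytoplasm 2 fell, DCLRE1A (-3.71 ± 1.12, adjusted p = 0.0331) and the helicase gene MCM9 (-3.23 ± 1.03, adjusted p = 0.0473); FAAP24 was at -3.26 ± 1.14 (adjusted p = 0.0793), and TIMELESS (1.47), SLX4 (1.24) and MUS81 (1.09) were highest. After rescaling 20 were lower (28.6%, against 18.3% of all genes) and 7 higher (10.0%, against 12.2%) in total RNA, and 13 and 11 in the cytoplasm (18.6% and 15.7%, against 15.9% and 14.8%). The counts of 2 in total and cytoplasmic RNA are 2.86%, against 2.79% and 3.67% of all genes.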

How the data were processed

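RNA of 18 libraries was alkylated with iodoacetamide, which turns labelled uridines into T-to-C mismatches, selected for poly(A) and sequenced as 150 bp pairs, per the labels' protocols. Per the submitters' processing notes, HISAT2, HTSeq, DESeq2 and Trimmomatic 0.39 were among the tools, and GRCh37/hg19 and dm3 among the builds, with no roles given; how T-to-C reads were called, the counting rule and the strand are not given in the sources used here, and the kit named in the labels is not described as strand-specific. The deposited values are a signal, per the file's name T-to-C counts divided by the authors' ERCC factor; all values were whole multiples of 1 read within 0.01, so reads were recovered for 100% of values, and edgeR on them with ERCC factors called 2536 genes lower and 22 higher in the nucleus. Intervals (98665, named by gene ID and number; for 15 of 43 members the highest number equals the gaps between merged exons in GENCODE 29) were summed per gene, so a read counted in several intervals counts each time. Interval numbers were taken as running along the genome: in that order the nuclear DMSO reads of a gene's intervals followed the lengths of its exon gaps (median Spearman 0.427 and 0.397 on the plus and minus strands, against 0.0385 and 0.0426 reversed). Gene positions are from GENCODE 29 on GRCh38, since the table gives none.

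Genes with a mean of at least 10 units were tested with limma 3.58.1 (R 4.3.3; trend and robust eBayes, all 6 groups, log2(value + 1), two-sided, Benjamini-Hochberg over all tested genes). Alternatives were a pseudocount of 10, no filter, rescaling, edgeR 4.0.16 (ERCC or TMM factors), DESeq2 1.42.0, the highest interval, batch blocks and each library left out; omissions, TMM and blocks on the rescaled values were added after seeing the data. Scripts were tested on simulated data. The prior degrees of freedom were at least 329 on the ERCC scale and 6.70 to 6.77 after rescaling. An exact permutation test of 3 libraries against 3 cannot go below 0.1. Libraries of a group differed by more than sampling noise (chi-square per degree of freedom 3.74 to 71.9). Batch numbers equal replicate numbers in the labels; same-numbered DMSO and JQ1-VHL deviations correlated at 0.27, -0.14 and 0.29 in nuclear, 0.22, 0.08 and 0.16 in total and 0.06, -0.05 and 0.02 in cytoplasmic RNA. No molecular identifiers are described, so PCR copies count as reads and a floor of 3 reads covers counting error only.

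The members, lists and naming rule were chosen with earlier results of these data known. Per drug comparison every called member on the ERCC scale up to 12, the 5 lowest and 5 highest changes, and BRCA1, BRCA2, ATM, FANCD2, RAD50, XRCC5, XRCC6, PRKDC and PARP1 were described; of the other pathway genes the 3 lowest and 3 highest, and of the first-to-last ratio the 4 lowest and 4 highest members. The comparisons were designed for a table of genes, while the table holds intervals.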

Additional observations from a re-analysis of the deposited data

How the results depend on the processing

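Rescaling turned the direction of nuclear estimates that were below 0 and not called on the ERCC scale, now called higher: BRCA1 0.84, BRIP1 1.05, RAD54L 0.87, MRE11 1.14, RAD50 1.08, FANCA 1.69, FANCD2 1.15, FANCI 1.30, ATR 1.11, ATRIP 0.93, PRKDC 1.50, XRCC4 1.23, XRCC5 1.41, XRCC6 1.72 and PARP1 1.21. With edgeR and TMM, BRIP1 was at 0.93, RAD54L 0.69, MRE11 0.99, RAD50 0.92, FANCA 1.53, FANCD2 0.99, FANCI 1.12, ATR 0.93, ATRIP 0.75, PRKDC 1.35, XRCC4 1.11, XRCC5 1.25, XRCC6 1.55 and PARP1 1.03. The turn follows from the scale itself, since both scalings centre on the typical gene. In the nucleus 16 members were higher and the median was 0.20 after rescaling, and 15 and 0.033 with TMM; the highest interval in place of the sum gave 5 lower, 4 of them among the 9 calls, and DESeq2 gave 13, 8 of them among the 9. In total RNA the lower and higher counts were 7 and 9 after rescaling and 5 and 13 with TMM, and the lower count was 1 with a pseudocount of 10, with edgeR and ERCC factors or with the highest interval, and 3 with DESeq2. In the cytoplasm they were 5 and 11 after rescaling and 3 and 12 with TMM, and 1 was lower by the highest interval. The difference of effects gave 1 lower with TMM (RNF8). For nuclear against cytoplasmic RNA in DMSO the lower and higher counts were 9 and 11 after rescaling and 8 and 14 with TMM; DESeq2 gave 6 lower and the highest interval 7 higher. Under JQ1-VHL 16 were higher after rescaling, 15 with TMM and 2 by the highest interval, by which RNF8 turned to 0.54. The cause of these differences was not tested.

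For the first-to-last ratio the nuclear count of higher members was 3 with a pseudocount of 10, 2 with the gene split at its middle interval and 4 with a mean of at least 50 (1 lower); the total count was 3 and 2 with a pseudocount of 10 and a mean of at least 50; the cytoplasmic count was 1 with a mean of at least 50, and 1 was lower with the middle split.

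With each library left out in turn, the lower count ranged from 0 to 12 in the nucleus (higher 0, median -2.03 to -0.98), and was 0 in total RNA (median -0.72 to 0.35) and the cytoplasm (median -0.72 to 0.86), with 0 higher. Rescaled, it ranged from 2 to 5 lower and 12 to 16 higher in the nucleus, 5 to 6 and 6 to 8 in total RNA and 3 to 5 and 8 to 11 in the cytoplasm. The difference of effects gave 0 to 1 lower and 0 higher. Nuclear against cytoplasmic RNA gave 0 to 7 lower and 1 to 3 higher in DMSO and 7 to 13 and 0 to 1 under JQ1-VHL. The ratio gave 0 to 2 higher and 0 lower in the nucleus and in total RNA, and 2 higher and 0 to 2 lower in the cytoplasm.

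With the batch number as a replicate block of 3 levels, 13 members were lower in the nucleus (the 9 plus BRCA2, BARD1, FANCB and TOPBP1) and 4238 of all tested genes; with 9 levels, 1 per batch and fraction, 8 were, without TP53BP1. The block of 3 gave 1 lower member in total RNA (FANCG), 1 higher in the nucleus against the cytoplasm under JQ1-VHL, and 3 higher first-to-last ratios in nuclear and in total RNA; the block of 9 gave 1 lower cytoplasmic ratio (BRIP1). Rescaled, the nuclear call of FANCL was lost under the block of 3, and FANCL and BRCA1 under the block of 9. PALB2 and RAD50 in total RNA and XRCC3, ATM and MDC1 in the cytoplasm were added by the block of 3; the block of 9 lost XRCC4 in total RNA and added ATM in the cytoplasm. Same-numbered libraries did not correlate above 0.1 in every pair.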
